A study of Homo sapiens with 12 samples.

Results

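Alternative 3′ splice sites are pairs of acceptors at the 3′ end of 1 intron, either of which can be joined to the same upstream exon. The 2908 events described here are those whose 2 acceptors lie more than 3 bases apart. They were chosen from 12727 alternative 3′ site events that the authors' splicing table lists. Of the listed events, 11150 have acceptors more than 3 bases apart, and 8896 of these had a mean of at least 20 reads over the 6 RNA libraries. The rarer form held at least 5% of all reads in 2908 of them. The choice therefore used read numbers and the balance of the 2 forms, not the difference between treatments, and all 2908 were tested.

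The cells were T-47D, an established luminal breast cancer epithelial line of unmodified genotype. They received 1 µM palbociclib, an inhibitor of the cell cycle kinases CDK4 and CDK6, or the solvent DMSO for 24 h, and each group had 3 biological replicates. Polyadenylated RNA was sequenced in 6 libraries, and chromatin accessibility was measured by ATAC-seq in 3 biological replicates per group. The labels do not say whether RNA and ATAC-seq came from the same cultures. Both groups are 1 cell line, so the spread between libraries is that between cultures of a line.

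An intron is removed in a pair of steps, and in the later step the spliceosome joins the upstream exon to a base that follows an AG dinucleotide. The U2AF proteins bind the pyrimidine tract and this AG, and SF1 and then the SF3 complexes hold the branch point upstream of it. Where a pair of AGs compete, use of the acceptor nearer the upstream exon gives the longer exon, and use of the other removes the segment between them as intron. A segment whose length is a multiple of 3 leaves the reading frame intact, and other lengths in coding sequence can expose the transcript to nonsense-mediated decay.

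The sequences in hand show the acceptor pairs directly. RefSeq promoter windows (GRCh38.p14) were searched for acceptors, though not on every chromosome. In this search they covered 32 distinct acceptors of the events, and all 32 had AG as the last intron bases. Acceptors on the part not searched were neither counted nor checked. Both acceptors of 15 events were covered in the same search. Of these 15, 3 are printed, each as 22 intron bases and 3 exon bases, 5′ to 3′, with the AG in capitals. CNDP2, a cytosolic dipeptidase, has acceptors 55 bases apart at chr18:74499860-74499884 and chr18:74499915-74499939 on the plus strand.
CNDP2 long form: tgaacacgtgctttctgggcAGgtc
CNDP2 short form: accagttgctcttccttccaAGaac
EPS8L2, an actin-linked adaptor protein, has acceptors 48 bases apart at chr11:720527-720551 and chr11:720575-720599 on the plus strand.
EPS8L2 long form: agctccggccactccctgccAGagt
EPS8L2 short form: tgtccgcgcgatgtacccgcAGgag
MX1, an interferon-induced GTPase, has acceptors 19 bases apart at chr21:41432009-41432033 and chr21:41432028-41432052 on the plus strand, so that the 2 printed windows overlap.
MX1 long form: cagctgcttatctgttcaatAGgca
MX1 short form: taggcatctgctttattttaAGctt

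These 3 pairs differed in inclusion level. The inclusion level, the length-corrected share of reads given to the longer form, was 73.0%, 71.6% and 72.9% for CNDP2 in the DMSO libraries and 76.8%, 75.6% and 75.2% with palbociclib. For EPS8L2 it was 6.40%, 6.59% and 7.55% in DMSO and 7.10%, 7.47% and 9.11% with palbociclib. For MX1 it was 11.5%, 9.0% and 9.22% in DMSO and 7.96%, 8.78% and 8.86% with palbociclib. By this level the longer form was the larger share in CNDP2 and the smaller share in EPS8L2 and MX1. The level counts all inclusion reads, and some of these need not come from use of the acceptor nearer the upstream exon. The groups did not overlap for CNDP2 and MX1, but no event of the 3 passed the test (edgeR adjusted p = 0.787, 0.877 and 0.893).

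A further set of sequences is shown because the end of the segment coincides with a microRNA. RefSeq places 4 miRNA hairpins within the segments of 6 events, and in 3 of the 4 the last base of the hairpin is the last intron base of the short form. The capitals mark the final AG of each hairpin, the bases that precede the short form's exon. MIR3064 lies at chr17:64500774-64500839 on the minus strand in DDX5, MIR6887 at chr19:35122700-35122764 on the plus strand in FXYD3, and MIR4750 at chr19:49888175-49888230 on the plus strand in TBC1D17.
MIR3064 hairpin in DDX5: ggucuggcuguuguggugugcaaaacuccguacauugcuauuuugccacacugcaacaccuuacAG
MIR6887 hairpin in FXYD3: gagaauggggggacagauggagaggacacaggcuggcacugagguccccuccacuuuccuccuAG
MIR4750 hairpin in TBC1D17: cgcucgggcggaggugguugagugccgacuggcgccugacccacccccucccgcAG
The mature miRNAs of MIR3064 are given with the seed, bases 2 to 8, in capitals.
hsa-miR-3064-5p: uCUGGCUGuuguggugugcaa
hsa-miR-3064-3p: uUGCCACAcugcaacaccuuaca
The mature miRNAs were not measured in these libraries. The 3 DDX5 events that hold MIR3064 are described below with the events that passed the test. FXYD3, a regulator of the sodium pump, gave inclusion levels of 2.49%, 2.33% and 2.09% in DMSO and 3.19%, 3.33% and 2.82% with palbociclib. Its groups did not overlap, and it did not pass the test (log2 odds ratio 0.44 ± 0.18 (SE), edgeR adjusted p = 0.521). TBC1D17, a Rab GTPase-activating protein, gave 15.6%, 20.1% and 18.7% in DMSO and 21.8%, 18.1% and 17.4% with palbociclib, and its groups overlapped.

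The 2908 events lay in 1883 genes and comprised 2765 distinct acceptor pairs, since some pairs are listed with more than 1 upstream exon. A single event was found in 1313 genes, and 52 genes held 5 or more. The most, 13, were in SNHG29, a small nucleolar RNA host gene. By RefSeq, 2448 events were in protein-coding genes, 220 in long noncoding RNA genes and 81 in transcribed pseudogenes, and 159 were not matched. Events of 1 gene share reads and junctions and are not independent of each other.

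The distance between the acceptors ranged from 4 to 4602 bases, with a median of 58 and quartiles of 25 and 135. It was a multiple of 3 in 1160 events, 39.9%, against 35.6% of the listed events over 3 bases apart that did not meet the read criteria. The share was 45.7% at 13 to 30 bases and 45.7% at 31 to 60 bases, and 30.7% at 201 to 500 bases. The closest pairs favoured the longer form. At 4 to 12 bases the median DMSO inclusion level was 77.6% (242 events), at 13 to 30 bases it was 14.03% (633 events), and above 1000 bases it was 5.24% (105 events). The criterion on the rarer form used reads not corrected for length, so events with long segments could meet it at low levels. How far this shaped the medians was not tested. The 56 pairs 4 bases apart had a median of 87.9%, and the 681 tandem pairs 3 bases apart, which passed the same read criteria, had 65.0%. In DMSO, 1347 events had an inclusion level under 20%, 1001 lay between 20% and 80%, and 560 were above 80%.

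At the edge of the read criterion lay ABCD4 (31 bases) and LAT (27 bases), both with a mean of 20.0 reads and inside it, and DZANK1 and SDHAP3, both with 19.8 reads and outside it. At the edge of the criterion on the rarer form lay ABCD4 and THOC2 with 5.00% inside, and BABAM1 with 4.995% outside. The DMSO inclusion levels of these were 95.2% for ABCD4, 11.9% for LAT, 11.8% for DZANK1, 95.5% for SDHAP3, 90.5% for THOC2 and 4.57% for BABAM1.

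Inclusion reads are of 3 kinds, and the kinds bear differently on which acceptor was used. Reads over the junction from the upstream exon to the nearer acceptor come from the longer form. Reads wholly within the segment, and reads that run unspliced over the boundary of the short exon, need not come from the longer form. They can also come from RNA in which the intron was not removed. Transcripts that hold the segment without the event's own upstream exon can give them too. Events that list the same acceptor pair with different upstream exons, as in THOC2, share these reads. The junction reads were a median of 15.5% of inclusion reads over the 2908 events, and 95.1% over the tandem pairs 3 bases apart. The median went from 86.7% at 4 to 12 bases through 33.3% at 13 to 30 and 9.84% at 101 to 200 to 2.08% above 1000 bases. In 1253 events, 43.1%, fewer than 10% of the inclusion reads crossed the longer form's junction, and in 334 none did in any library. HNRNPA1, with 33 bases between its acceptors, had 0 such reads in all 6 libraries beside 5410 to 7999 reads over the short junction in each. Below, the described events that passed the test are therefore given with all inclusion reads and with junction reads alone. Junction reads alone were an alternative added after the data were seen. Levels of other events count all inclusion reads unless junction reads are named.

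**Figure D1:**
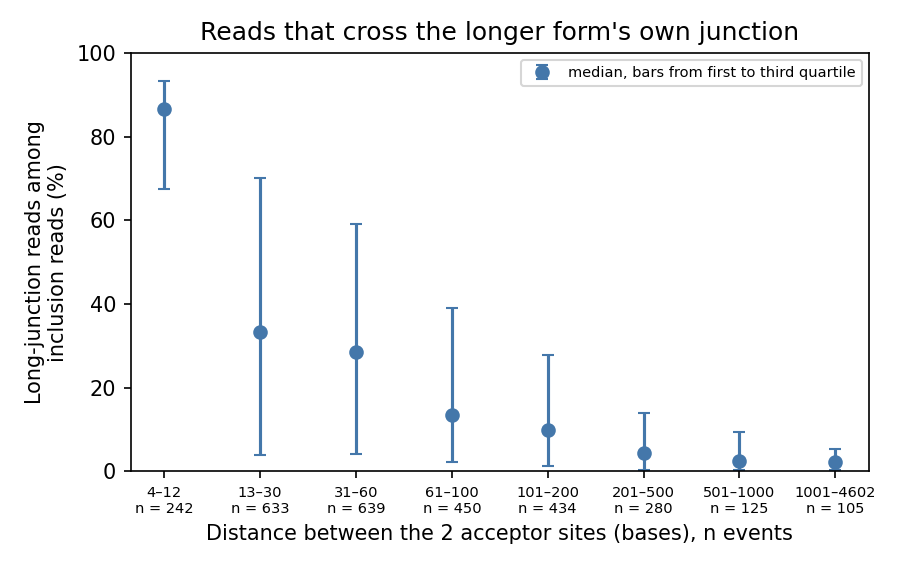
The share of inclusion reads that cross the longer form's own junction (percent, y axis) is plotted for 8 classes of distance between the acceptors (bases, x axis, with the number of events). Points are medians over events and bars run from the first to the third quartile; the median is 86.7% at 4 to 12 bases and 2.08% above 1000 bases.

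With palbociclib, the inclusion level, which counts all 3 kinds of inclusion read, rose in 9 of the 2908 events and fell in 1. Of the 10, 2 also passed on junction reads alone. These 10 are 0.344% of the events, beside 0.278% of all 3592 alternative 3′ site events tested, of which 0.251% rose and 0.0278% fell, and all 10 calls were among events over 3 bases apart. The 9 events described here were in 7 genes: NPEPPS, DDX5 (3 events), TPM1, WSB1, DDX39A and FUBP1 rose, and RNF181 fell. Each had no overlap between groups. Of the tandem pairs 3 bases apart, 0 of 681 passed (24 at an unadjusted p under 0.05, and 0 by DESeq2), and whether the 2 classes differ was not tested. The test was edgeR's quasi-likelihood test of the form by treatment term, with Benjamini-Hochberg adjustment over the 3592 events. When events with a rarer form under 5% were also fitted (9897 events), 3 of the 10 calls remained, those of TPM1, DDX39A and FUBP1. At an unadjusted p under 0.05 there were 132 events higher and 124 lower, 8.80% of the 2908 against 7.8% of all tested. By the FDR of the authors' deposited table, 56 events were higher and 59 lower at under 0.05, beside 3.56% of all 3592, and all 10 calls were among them.

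**Figure D2:**
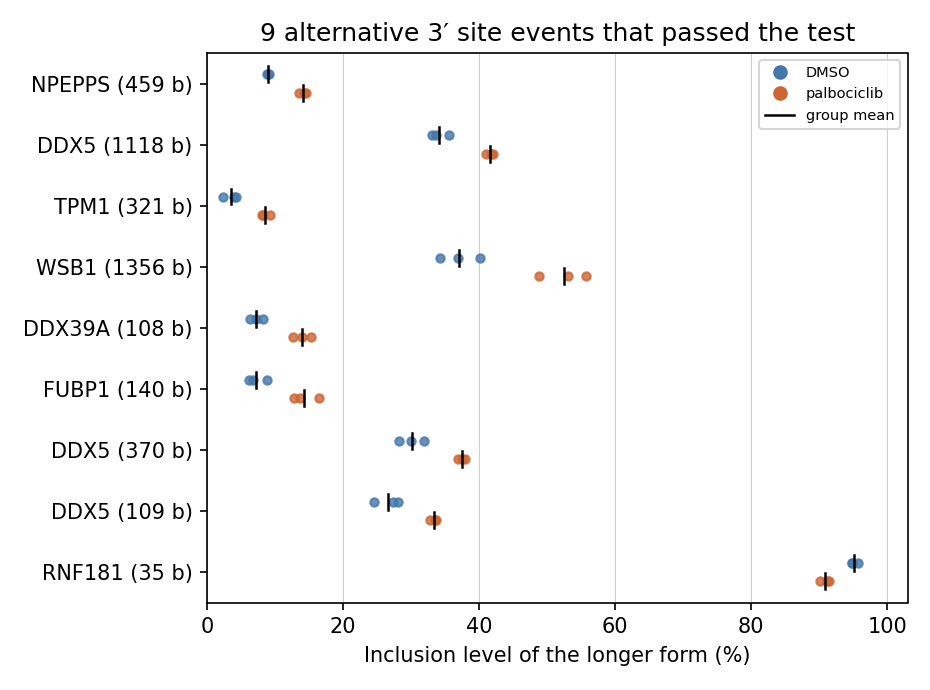
Inclusion level of the longer form (percent, x axis) in each of 3 DMSO and 3 palbociclib libraries for the 9 events described that passed the test, named by gene and by distance between the acceptors in bases. Points are libraries and black ticks group means; in every row the groups do not overlap, and RNF181 is the 1 event that is lower with palbociclib.

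NPEPPS encodes the puromycin-sensitive aminopeptidase, a cytosolic enzyme that trims peptides. Its event has acceptors 459 bases apart, and the segment, exon in the longer form and intron in the shorter, is at chr17:47619278-47619736 on the plus strand (GRCh38, gene ENSG00000141279). The inclusion level was 9.001%, 8.86% and 9.10% in the DMSO libraries and 13.5%, 14.6% and 14.2% with palbociclib. The DMSO libraries lay close together, and every palbociclib library was above them. The group means were 8.99% ± 0.121 and 14.1% ± 0.556 (SD, n = 3 each), a log2 odds ratio of 0.73 ± 0.085 (SE, edgeR adjusted p = 1.2e-05).

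The junction reads of NPEPPS showed the same direction on their own. Reads over the longer form's junction numbered 64, 99 and 77 in DMSO and 260, 277 and 274 with palbociclib. Reads over the short junction numbered 2061, 2655 and 1747 in DMSO and 2872, 2949 and 3098 with palbociclib. The longer form was thus 3.61% ± 0.605 of junction reads in DMSO and 8.34% ± 0.233 with palbociclib (SD, n = 3), a log2 odds ratio of 1.29 ± 0.16 (SE, edgeR adjusted p = 2.0e-11). NPEPPS RNA as a whole was 261 ± 3.13 FPKM in DMSO and 337 ± 14.7 with palbociclib (limma adjusted p = 8.0e-05). Partial copies of NPEPPS exist in the genome, and reads that fit more than 1 copy make these values uncertain.

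WSB1, a substrate-binding subunit of a ubiquitin ligase, has acceptors 1356 bases apart, with the segment at chr17:27307744-27309099 on the plus strand. Its inclusion level was 37.0%, 40.1% and 34.2% in DMSO and 53.1%, 48.7% and 55.7% with palbociclib. The group means were 37.1% ± 2.96 and 52.5% ± 3.50 (SD, n = 3), a log2 odds ratio of 0.90 ± 0.12 (SE, edgeR adjusted p = 4.9e-05). All palbociclib libraries were higher than all DMSO libraries. Reads over the longer form's junction numbered 139, 136 and 96 in DMSO and 263, 251 and 297 with palbociclib, while those over the short junction numbered 233, 257 and 225 and then 217, 258 and 222. The long-junction reads were thus higher and the short-junction reads overlapped. On junction reads alone the longer form was 34.0% ± 3.77 in DMSO and 53.8% ± 4.05 with palbociclib (log2 odds ratio 1.17 ± 0.23 (SE), edgeR adjusted p = 9.2e-04). NPEPPS and WSB1 are the 2 called events that also passed on junction reads.

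DDX5, the DEAD-box RNA helicase p68, holds 3 of the called events. They share 1 short acceptor on the minus strand, where the MIR3064 hairpin printed above ends, and pair it with acceptors 109, 370 and 1118 bases away. Their segments run from chr17 position 64500774 to 64500882, 64501143 and 64501891, so that each longer segment contains the shorter ones. For the 1118-base event the inclusion level was 33.6%, 35.5% and 33.1% in DMSO and 41.7%, 41.0% and 42.1% with palbociclib (log2 odds ratio 0.46 ± 0.060 (SE), edgeR adjusted p = 3.4e-05). For the 370-base event it was 30.0%, 32.0% and 28.3% in DMSO and 37.5%, 37.0% and 37.9% with palbociclib (log2 odds ratio 0.48 ± 0.074 (SE), edgeR adjusted p = 3.7e-04). For the 109-base event it was 27.3%, 28.1% and 24.6% in DMSO and 33.4%, 32.7% and 33.7% with palbociclib (log2 odds ratio 0.46 ± 0.084 (SE), edgeR adjusted p = 0.0038). The 3 rises are not 3 independent observations, because the events share their short-junction and boundary reads. Without palbociclib replicate 3, the 109-base event had an adjusted p of 0.0503.

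Hardly any of the DDX5 reads crossed a junction of the longer forms. For the 1118-base event they numbered 0, 1 and 0 in DMSO and 3, 13 and 2 with palbociclib, beside 14707, 19418 and 13787 and then 25562, 26866 and 27575 reads wholly within the segment. Long-junction reads were 0.0132% of inclusion reads for the 1118-base event, 0.213% for the 370-base event and 0.406% for the 109-base event. On junction reads alone none of the 3 passed (edgeR adjusted p = 0.10, 1.0 and 0.754), and the 370-base event had a log2 odds ratio of -0.081 ± 0.32 (SE), the opposite sign. The whole intron is also listed as a retained intron with the same short junction. Its retention level was 35.8%, 37.6% and 35.1% in DMSO and 43.9%, 43.7% and 44.5% with palbociclib, and it rose (log2 odds ratio 0.47 ± 0.056 (SE), edgeR adjusted p = 3.0e-07). What part of the inclusion reads came from the unspliced intron was not tested.

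DDX39A, a DEAD-box helicase of mRNA export, has acceptors 108 bases apart, with the segment at chr19:14409874-14409981 on the minus strand. Its inclusion level was 8.16%, 7.16% and 6.29% in DMSO and 12.7%, 15.3% and 13.96% with palbociclib (log2 odds ratio 1.07 ± 0.16 (SE), edgeR adjusted p = 1.4e-04). The short form had fewer reads with palbociclib. Its junction had 1001, 1271 and 940 reads in DMSO and 451, 500 and 460 with palbociclib, whereas boundary reads numbered 159, 179 and 120 and then 123, 169 and 122. DDX39A RNA fell from 83.3 ± 2.28 to 38.9 ± 1.57 FPKM (SD, n = 3; log2 change -1.08 ± 0.040 (SE), limma adjusted p = 1.4e-07). Long-junction reads were few, 8, 11 and 2 in DMSO and 9, 11 and 11 with palbociclib, and the junction test was not passed (log2 odds ratio 1.75 ± 0.47 (SE), edgeR adjusted p = 0.105). The same intron rose as a retained intron, from 10.5% ± 0.669 to 17.5% ± 1.39 (SD, n = 3; edgeR adjusted p = 2.1e-05).

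FUBP1, a single-strand DNA and RNA binding protein that acts on the MYC promoter, has acceptors 140 bases apart, with the segment at chr1:77948775-77948914 on the minus strand. Its inclusion level was 6.13%, 6.75% and 8.80% in DMSO and 13.6%, 16.5% and 12.8% with palbociclib (log2 odds ratio 1.11 ± 0.16 (SE), edgeR adjusted p = 1.4e-04). Boundary reads numbered 101, 141 and 117 in DMSO and 202, 233 and 205 with palbociclib, and reads within the segment 19, 31 and 33 and then 47, 62 and 43. Both kinds were higher in every palbociclib library of FUBP1. Long-junction reads numbered 2, 0 and 3 in DMSO and 0, 6 and 5 with palbociclib, and the junction test was not passed (edgeR adjusted p = 0.941). FUBP1 RNA fell from 105 ± 2.18 to 83.2 ± 1.75 FPKM (SD, n = 3; limma adjusted p = 6.9e-05).

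TPM1, the actin-binding protein tropomyosin 1, has acceptors 321 bases apart, with the segment at chr15:63043706-63044026 on the plus strand. Its inclusion level was 2.35%, 4.22% and 4.00% in DMSO and 8.26%, 8.13% and 9.30% with palbociclib (log2 odds ratio 1.37 ± 0.18 (SE), edgeR adjusted p = 3.4e-05). Reads within the segment numbered 35, 74 and 43 in DMSO and 135, 181 and 193 with palbociclib. Long-junction reads numbered 7, 19 and 3 in DMSO and 21, 8 and 27 with palbociclib, and these overlapped (log2 odds ratio 0.80 ± 0.39 (SE), edgeR adjusted p = 0.817).

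RNF181, a ubiquitin ligase, is the event that fell. Its acceptors are 35 bases apart, with the segment at chr2:85596822-85596856 on the plus strand, and the longer form was the main one. The inclusion level was 94.8%, 94.8% and 95.7% in DMSO and 91.4%, 91.2% and 90.1% with palbociclib (log2 odds ratio -0.95 ± 0.18 (SE), edgeR adjusted p = 0.0079). Most of its inclusion reads, 71.7%, crossed the longer form's junction. Reads over the short junction numbered 36, 49 and 25 in DMSO and 77, 86 and 91 with palbociclib. On junction reads alone the size was similar but the test was not passed (log2 odds ratio -0.89 ± 0.24 (SE), edgeR adjusted p = 0.105). The call was also lost without DMSO replicate 2 (adjusted p = 0.0550), DMSO replicate 3 (0.0657) or palbociclib replicate 3 (0.0704).

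On junction reads alone, 3 of the 2908 events rose and 0 fell (94 and 106 at an unadjusted p under 0.05 in edgeR), beside 0.0835% of all 3592. The third, after NPEPPS and WSB1, was RACK1, a scaffold protein of the small ribosomal subunit, which was named after its values were seen. Its acceptors are 277 bases apart, with the segment at chr5:181237043-181237319 on the minus strand. Long-junction reads numbered 39, 77 and 48 in DMSO and 132, 112 and 114 with palbociclib, and the longer form was 1.03% ± 0.188 and 1.71% ± 0.261 of junction reads (SD, n = 3; log2 odds ratio 0.71 ± 0.17 (SE), edgeR adjusted p = 0.033). With all inclusion reads its levels were 2.81%, 2.57% and 2.22% in DMSO and 3.10%, 2.84% and 2.80% with palbociclib. These overlapped, and the adjusted p was 0.578.

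**Figure D3:**
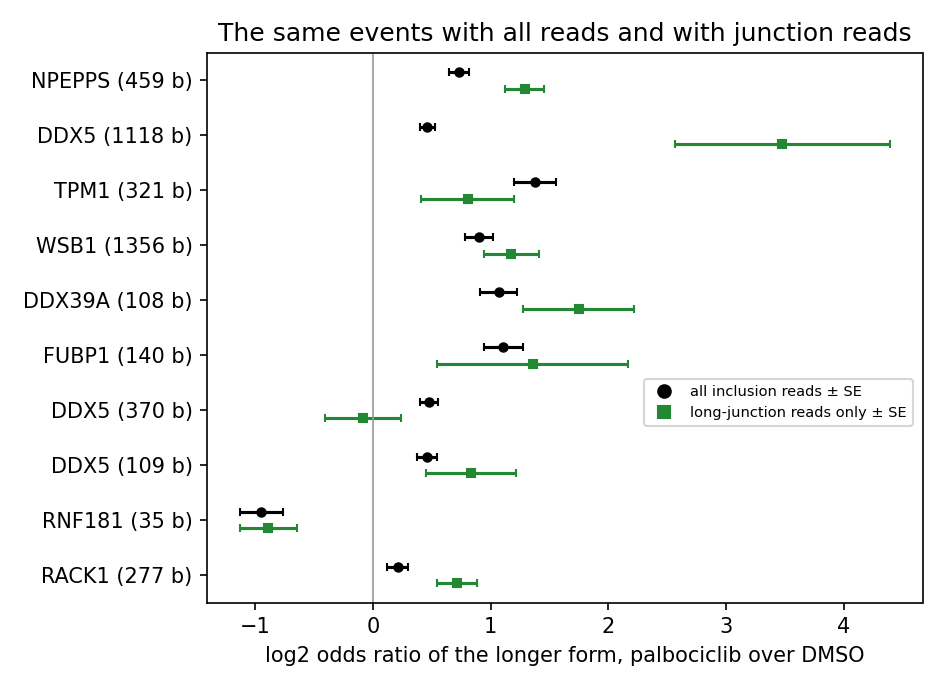
log2 odds ratio of the longer form, palbociclib over DMSO (x axis), with all inclusion reads (black circles) and with long-junction reads only (green squares), for the 9 called events described and RACK1. Bars are standard errors of the fit over 3 libraries per group; NPEPPS, WSB1 and RACK1 pass on junction reads, and the 370-base DDX5 event lies on the other side of 0.

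Most of the events moved little. The median difference between group means was -0.12 points over the 2908 events, -0.091 over all 3592, and the quartiles were -2.49 and 2.08 points. Within groups the median SD was 3.21 points in DMSO and 3.07 with palbociclib. A difference of at least 5 points in either direction was seen in 773 events, at least 10 points in 292 and at least 20 points in 60. Groups did not overlap in 189 events with the higher level in palbociclib and 210 with the lower, 13.7% of the 2908 against 13.1% of all tested, a share near that background. The median level per library was 25.2%, 24.9% and 24.7% in DMSO and 24.2%, 24.3% and 24.8% with palbociclib.

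**Figure D4:**
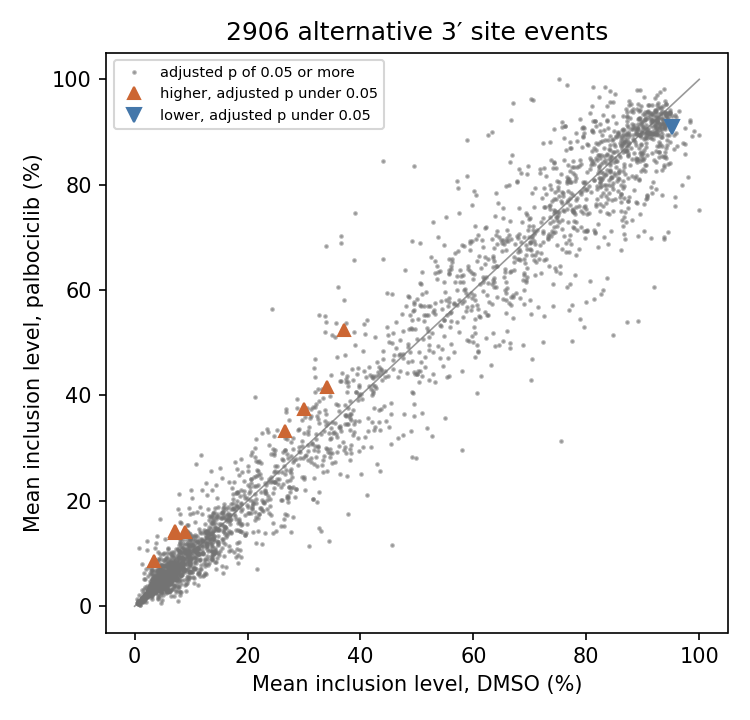
Mean inclusion level with palbociclib (percent, y axis) against that in DMSO (percent, x axis) for 2906 of the 2908 events, 3 libraries per group. Grey points did not pass the test, orange upward triangles are the 8 described events that rose and the blue downward triangle is RNF181, which fell; the grey line marks equal levels.

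Wide differences without overlap were also seen in events of modest depth that did not pass the test. Among events with a mean of at least 50 reads, 8 with the largest rise and 8 with the largest fall are described, 1 per gene. In WDR62, a centrosomal protein, the level was 40.4%, 33.4% and 35.7% in DMSO and 100%, 62.9% and 47.8% with palbociclib. The last 3 values rest on 6, 23 and 23 reads, and WDR62 RNA fell from 11.3 ± 1.15 to 1.55 ± 0.246 FPKM (SD, n = 3; limma adjusted p = 3.3e-07). In CRELD1, a membrane protein of heart development, the acceptors are 12 bases apart. The CRELD1 level was 33.3%, 33.6% and 30.8% in DMSO and 51.0%, 56.6% and 58.1% with palbociclib (log2 odds ratio 1.35 ± 0.46 (SE), edgeR adjusted p = 0.341). Its long-junction reads numbered 5, 3 and 3 in DMSO and 18, 12 and 25 with palbociclib.

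ELAC1, CAPRIN2, REX1BD, RPL23AP7, MTRF1L and the long noncoding SNHG17 complete the 8 with the largest rise. Their mean levels were 57.3% and 79.3% in ELAC1, 35.7% and 53.8% in CAPRIN2, and 60.5% and 78.0% in REX1BD, with DMSO given before palbociclib. They were 72.2% and 87.8% in RPL23AP7, a pseudogene whose reads can be shared with its copies, 68.0% and 82.9% in MTRF1L, a mitochondrial translation release factor, and 43.9% and 65.9% in SNHG17. The edgeR adjusted p of these 6 lay between 0.189 in ELAC1 and 0.578 in REX1BD. Of the inclusion reads, 0.308% in WDR62 and 0.637% in SNHG17 crossed the longer form's junction, against 16.6% to 88.6% in the other rises. On junction reads alone the groups did not overlap in CRELD1, ELAC1, REX1BD, RPL23AP7 and MTRF1L, though none passed. In CAPRIN2 they overlapped, at 71.4% ± 7.52 of junction reads in DMSO and 75.3% ± 3.50 with palbociclib (SD, n = 3).

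Among the largest falls, 4 of 8 were in long noncoding RNA genes: LINC01588, ANXA2R-AS1, KRT10-AS1 and SIPA1L1-AS1. In KRT10-AS1 the level was 81.0%, 78.5% and 82.5% in DMSO and 59.6%, 61.5% and 64.1% with palbociclib (log2 odds ratio -1.35 ± 0.39 (SE), edgeR adjusted p = 0.244). The short junction of KRT10-AS1 had 10, 17 and 12 reads in DMSO and 47, 44 and 40 with palbociclib. The mean levels were 92.0% in DMSO and 60.6% with palbociclib in LINC01588, 79.6% and 53.0% in ANXA2R-AS1, and 66.5% and 49.0% in SIPA1L1-AS1. Whether the counting used strand is not given in the sources used here. It is therefore not known whether reads of an antisense gene and its partner were kept apart.

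The other 4 falls were in coding genes. MOV10, an RNA helicase, gave 59.5%, 71.2% and 80.6% in DMSO and 46.3%, 44.1% and 50.2% with palbociclib (log2 odds ratio -1.37 ± 0.40 (SE), edgeR adjusted p = 0.244). The mean levels of RANGAP1, the activator of the Ran GTPase, were 77.4% in DMSO and 57.1% with palbociclib. Those of TRIM16, a ubiquitin ligase, were 49.9% and 28.1%, and those of AP2S1, a clathrin adaptor subunit, 77.1% and 61.1%. In 5 of the 8 falls, RANGAP1, AP2S1, TRIM16, KRT10-AS1 and ANXA2R-AS1, 1.33% or fewer of the inclusion reads crossed the longer form's junction.

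**Figure D5:**
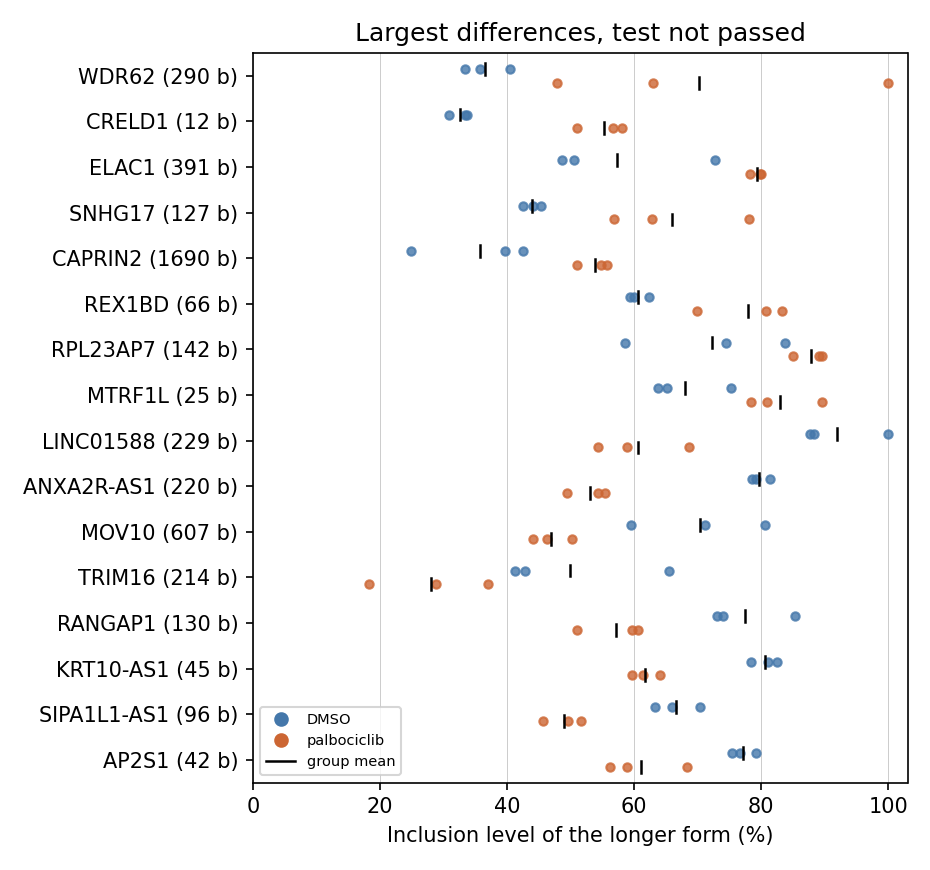
Inclusion level of the longer form (percent, x axis) in 3 DMSO and 3 palbociclib libraries for the 8 events with the largest rise (upper rows) and the 8 with the largest fall (lower rows) among events that did not pass the test. Points are libraries and black ticks group means; the groups do not overlap by the way these rows were chosen, and the palbociclib libraries of WDR62 spread from 47.8% to 100%.

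Retention of the same introns was tested for 372 of the events, whose short junction is also that of 1 of 314 retained introns. Of these introns 5 rose, 1.59%, and 1 fell, beside 1.1% and 0.307% of all 4565 retained introns tested with edgeR. Those that rose held the segments of NPEPPS, DDX5, DDX39A, DDX3X and NONO, and the 1 that fell that of ALS2CL. Without DMSO replicate 2 or palbociclib replicate 3, 3 rose, and without DMSO replicate 2, DMSO replicate 3 or palbociclib replicate 2, 0 fell. The intron of NPEPPS was retained at 9.37% ± 0.247 in DMSO and 14.05% ± 0.673 with palbociclib (SD, n = 3; edgeR adjusted p = 5.6e-07). In DDX3X, an RNA helicase, the alternative 3′ site event had 2.77%, 2.73% and 2.73% in DMSO and 4.04%, 3.65% and 3.65% with palbociclib. The DDX3X event did not pass (edgeR adjusted p = 0.0718), while its intron did (adjusted p = 0.0355). In NONO, a nuclear RNA-binding protein, the 2 adjusted p values were 0.189 for the event and 0.0491 for the intron. An event and an intron with the same short junction share reads and are not independent.

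Genes of the splicing and decay machinery were themselves among the hosts. Of the 4 lists used here, 22 genes held 36 of the events, and 0 passed the test (4 at an unadjusted p under 0.05 in edgeR, and 0 by DESeq2). The median difference over the 36 was -0.28 points. Groups did not overlap in 5 of them, all with the higher level in palbociclib: 2 in HNRNPC and 1 each in CASC3, DDX42 and SRSF5, a share of the 36 near the 13.1% of all 3592 events. In the 493-base event of HNRNPC, a protein that competes with U2AF2 for pyrimidine tracts, the level was 3.98%, 4.38% and 4.40% in DMSO and 5.53%, 5.08% and 6.34% with palbociclib. Its edgeR adjusted p was 0.0979 (log2 odds ratio 0.43 ± 0.10 (SE)). On junction reads alone the groups of this HNRNPC event overlapped (log2 odds ratio 0.23 ± 0.20 (SE), edgeR adjusted p = 0.980).

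Of the list hosts with the most reads, SRSF5 gave 48.4%, 48.2% and 44.5% in DMSO and 50.9%, 52.2% and 48.5% with palbociclib over a 956-base segment (edgeR adjusted p = 0.521). In HNRNPK, HNRNPA2B1, SF1, TRA2A, RBM39 and HNRNPA1, the groups overlapped with all inclusion reads. On junction reads alone the groups did not overlap in SF1, TRA2A and SRSF5, and none of them passed (edgeR adjusted p = 0.980, 0.721 and 0.987). The longer form of TRA2A was 18.2% ± 2.04 of junction reads in DMSO and 12.4% ± 1.08 with palbociclib. In SF1 it was 60.1% ± 2.21 and 64.1% ± 2.26, and in SRSF5 2.35% ± 0.244 and 2.72% ± 0.0749. With all inclusion reads, the mean levels of SF1, which binds the branch point, were 67.4% ± 0.907 in DMSO and 68.7% ± 1.74 with palbociclib. Those of RBM39, a partner of U2AF2, were 52.8% ± 2.43 and 51.8% ± 2.22 for acceptors 18 bases apart (SD, n = 3).

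RNA levels of the machinery were compared by list. Of 25 genes for recognition of the 3′ site and branch point, 2 rose and 16 fell with palbociclib (limma on log2(FPKM + 1), adjusted p under 0.05), beside 20.9% and 22.9% of all 15869 genes tested. The median log2 change of the list was -0.20, and that of all genes 0.0023. U2AF2 fell from 81.5 ± 0.680 to 66.8 ± 1.32 FPKM (adjusted p = 1.2e-04) and U2AF1 from 121 ± 8.45 to 102 ± 2.31 FPKM (adjusted p = 0.0049). SF1 fell from 171 ± 3.92 to 156 ± 2.65 FPKM (adjusted p = 0.0090), and ZRSR2, the U2AF1 counterpart of minor introns, rose from 11.3 ± 0.344 to 13.4 ± 0.344 FPKM (adjusted p = 0.0041; SD, n = 3 in each case). SF3B1 (adjusted p = 0.0418) and PUF60 (0.0291) passed, but did so in 1 of 6 fits that left out a library, and RBM39 did not pass (0.0534).

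Of 18 genes of the second catalytic step, 0 rose (0 at an unadjusted p under 0.05 in limma, and 0 in the authors' deposited table) and 4 fell, a share near the 22.9% of all genes, and quantile normalization gave 3 higher and 2 lower. DHX38 and DHX8 fell by 0.12 and 0.13 on the log2 scale and passed in 1 of 6 fits that left out a library. SLU7 and PRPF18, which steer the choice of acceptor, did not pass (adjusted p = 0.137 and 0.785). Of 25 regulators that bind near 3′ sites, 3 rose and 14 fell, beside 20.9% and 22.9% of all 15869 genes. The median log2 change of the regulators was -0.22. PTBP1, which binds pyrimidine tracts, fell from 117 ± 2.17 to 82.9 ± 1.61 FPKM (limma adjusted p = 4.8e-06). SRSF3 fell from 207 ± 11.7 to 174 ± 9.46 FPKM (limma adjusted p = 0.0048; SD, n = 3). HNRNPC did not pass (adjusted p = 0.0531). Of 18 genes of nonsense-mediated decay and the exon junction complex, 2 rose and 10 fell, beside the same shares of all genes. The median log2 change of this list was -0.19. UPF1 had a log2 change of -0.19 ± 0.046 (SE, adjusted p = 0.011), and SMG1 one of -0.23 ± 0.075 (adjusted p = 0.039), the latter passing in 2 of 6 fits that left out a library. After quantile normalization the recognition list gave 6 higher and 16 lower, and the decay list 3 and 7. The shares of all genes under quantile normalization are not given here.

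Of the 1883 host genes, 1875 were tested for RNA level, and 494 rose and 472 fell, 26.3% and 25.2%, beside 20.9% and 22.9% of all 15869 genes. After quantile normalization the split was 696 higher and 359 lower. The shares of all genes under that setting are not given here, so this split has no background beside it. The host level fell by at least 1 on the log2 scale in 69 genes with 101 of the events. Of these 101, 1 event passed the splicing test, that of DDX39A, beside 0.278% of all 3592 events, and 15 had no overlap between groups, a share near the 13.1% of all events. Their median difference was 0.50 points. Bulk RNA cannot tell fewer cells with a transcript from less of it per cell.

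ATAC-seq peaks overlapped the segments of 65 events, none of them a called one. Of the 53 peaks, 8 rose and 4 fell (edgeR adjusted p under 0.05), beside 11.9% of all 38121 peaks in either direction. HLCS, a biotin ligase, had the peak with the largest of these rises, a log2 change of 0.64 (adjusted p = 1.7e-04), and TMEM107, a ciliary protein, that with the largest fall, -0.47 (adjusted p = 2.7e-04). Both were named after their values were seen. Without DMSO replicate 3 the counts were 5 and 2.

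Depth and the labelled identity were checked in every library. Reads assigned to alternative 3′ site events, some counted in more than 1 event, totalled 6497138 to 9453287 per RNA library, and reads in ATAC peaks 12830062 to 18250496 per library. All 8 cell cycle genes listed as a check of the drug fell, beside 22.9% of all 15869 genes tested. Their summed level was 514 to 519 FPKM in DMSO and 38.4 to 39.3 with palbociclib. Luminal markers such as KRT8, GATA3 and ESR1 were present (summed 5593 to 6118 FPKM in DMSO and 7516 to 8296 with palbociclib). Most of this sum came from KRT8, KRT18 and KRT19, and the DMSO mean of ESR1 was 43.2 FPKM. Of the 9 listed, 8 rose, beside 20.9% of all 15869 genes tested. Of 12 markers of other cell types 3 passed the level filter, among them COL1A1 and VIM, and of these 3, 0 were called (0 at an unadjusted p under 0.05 in limma, 0 in the authors' deposited table). COL1A2, under the filter at 0.263 to 0.469 FPKM in the 6 libraries, had a log2 change of -0.52 and an adjusted p of 0.0456 in the authors' deposited table.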

How the data were processed

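Polyadenylated RNA libraries and ATAC-seq libraries of T-47D cells, 6 of each, were processed by the authors. The submitters' processing notes name fastp 0.23.2, STAR 2.7.10b, Salmon 1.10.2, SAMtools 1.16, DESeq2 1.44.0 and GRCh38 for RNA; the rMATS version is not given in the sources used here. The deposited splicing table holds inclusion and skipping reads per library, 3 values joined in a cell, the authors' p-value and FDR, and an inclusion level difference (score). Deposited FPKM values and a DESeq2 table (mean normalized signal, log2 fold change, p-value) cover RNA levels. ATAC values are deposited counts per peak from featureCounts 2.0.6, per the file headers.

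Inclusion levels were recomputed from reads divided by the deposited form lengths (largest gap to the deposited levels, 0.05 points). Splice events were tested with edgeR 4.0.16 (R 4.3.3): a term per library, the form, and form by treatment, over events with 20 or more reads on average and a rarer form of 5% or more. The SE of a log2 odds ratio is its size divided by the root of the F statistic. FPKM were tested with limma 3.58.1 on log2(FPKM + 1), mean FPKM at least 0.5. ATAC counts were tested with edgeR and TMM factors. DESeq2 1.42.0 was an alternative. Adjusted p-values are Benjamini-Hochberg over all features of a table, and the threshold was 0.05. With 3 libraries per group an exact permutation test cannot go below 0.10, so only model-based p-values are given. The fits were also run on simulated data. The simulated splice counts had the same dispersion in every event and no shared reads, so they do not cover these traits of the real events.

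Members and gene lists were chosen with earlier results of these data known. Named events were every called one but 1, which is not reported here, the 8 largest rises and 8 largest falls among other events with 50 or more reads on average and no overlap (1 per gene), the 8 most-read events in listed genes, 1 per gene, and those beside each threshold. Replicates are separate cultures, and intervals of depth cover counting error only. Same-numbered libraries share a label and no stated batch. Alternatives were another test, filters, scaling, a replicate block, leaving out each library and junction reads alone.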

Additional observations from a re-analysis of the deposited data

How the results depend on the processing

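The 10 calls (9 higher, 1 lower) were all made again by DESeq2, with a replicate block, and when all 5 event types were fitted together, which gave 13 higher and 2 lower. TMM factors and minimum means of 10 or 50 reads also gave 9 and 1. Without the filter on the rarer form, 3 were higher and 0 lower, and junction reads alone gave 3 and 0. The authors' deposited FDR gave 56 and 59; the cause of that gap was not tested. Leaving out 1 library gave 7 to 10 higher and 0 to 1 lower. On junction reads the log2 odds ratio reversed to -0.081 in the 370-base DDX5 event. The median difference, -0.12 points, was -0.18 without division by form length and -0.16 to -0.053 with 1 library left out. Retained introns that hold a segment gave 3 to 4 higher and 0 to 1 lower with 1 library left out, against 5 and 1.

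Libraries were compared by their differences from the mean of their own group, not by the levels themselves. The correlations of these differences between same-numbered libraries 1, 2 and 3 were -0.030, 0.0087 and 0.042 for the events. They were 0.106, -0.0051 and 0.088 for RNA and 0.0056, 0.043 and -0.026 for ATAC. In none of the 3 data types did every library correlate best with its own number or every pair exceed 0.1, so they were taken to share only a number. The replicate block gave 7 retained introns higher and 1 lower, 4 genes of 3′ site recognition higher against 2, 2 genes of the second catalytic step lower against 4, and 8 and 4 peaks. It changed no count of the event calls.

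Quantile normalization gave 6 recognition genes higher, and 3 second-step genes higher with 2 lower, without a share of all genes under that setting. With 1 library left out, recognition genes higher were 1 to 2, second-step genes lower 2 to 3, decay genes higher 1 to 2, and peaks over segments 5 to 6 higher and 2 to 4 lower.

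The median event had 127 reads per library, and 9 of the 10 called events were among the 434 with at least 500; the part of depth in the missed calls was not tested. A missed threshold does not show that levels were equal. Fits without 1 library had 2 in that group and less power.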

Other observations

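SNHG29, a host gene of small nucleolar RNAs whose own spliced transcript is noncoding, held 13 of the events within 1 locus, and their levels in DMSO ran from 4.04% to 92.3%. The event at chr17:16441074-16441367, with acceptors 294 bases apart, had 74.7%, 69.1% and 65.3% in DMSO and 72.7%, 70.0% and 71.8% with palbociclib. In SNHG29, 84.5% of the inclusion reads of that event crossed the longer form's junction, an unusual share for that distance, and its log2 odds ratio was 0.12 ± 0.13 (SE, edgeR adjusted p = 0.877). A neighbouring SNHG29 event with a 128-base segment had 2 such reads of 6722. The lowest edgeR adjusted p of the 13 was 0.809.

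PILRB, an immune receptor gene, holds the fourth hairpin, MIR6840, inside a 356-base segment and not at its end. PILRB gave 16.2%, 17.5% and 17.3% in DMSO and 14.4%, 17.4% and 17.8% with palbociclib, and 20.0% of its inclusion reads crossed the longer form's junction.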
